A study of Mus musculus with 4 samples.

Results

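The B cells of 2 whole-tumour single-cell libraries were described, 295 of the 1753 cells that passed the cell filter in those libraries and of the 6020 that passed it in all 4 libraries. A barcode counted as a cell with at least 500 unique molecular identifiers (UMIs, each standing for 1 captured RNA molecule), at least 250 genes and at most 20% of its UMIs from mitochondrial genes. The cells were selected on their own UMI counts: a cell was kept as a B cell when Cd79a, Cd79b and Ms4a1 together had at least 3 UMIs and Cd3d, Cd3e and Cd3g had 0. This gave 171 B cells in the library of line KPC-4545 and 124 in that of line KPC-3403. Because the genes of the cells chose the cells, every difference between B cells and other cells below is a description, without a test.

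The study compared ways of preparing a tumour so that its fibroblasts can be read by single-cell RNA sequencing. Pancreatic ductal adenocarcinoma cells of line KPC-4545 or KPC-3403 were grown orthotopically, that is in the pancreas, in C57BL/6J mice, and untreated tumours (treatment None) were taken on day 13. KPC is the usual name of a genetically engineered mouse model of pancreatic cancer. From each line, 1 library held the whole dissociated tumour and 1, here called the enriched library, held what a cell sorter left after cells bearing CD45, EPCAM, CD31 or TER119 were taken away. The labels give no age of the mice, no number of tumours or animals behind a library, and not whether a line is 1 clone. With 1 library per line, a difference between the lines cannot be told apart from a difference between tumours, animals or library preparations. Values are therefore given with exact 95% intervals that cover counting error only, and no p-value is given.

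The whole libraries held 5746733 UMIs for KPC-4545 and 13990046 for KPC-3403, over 536 and 1217 cells. Cells of whole KPC-3403 and of enriched KPC-4545 shared 139 barcodes, where the other pairs of libraries shared 6 to 11. Of the B cells, 1 in KPC-4545 and 2 in KPC-3403 had a barcode that was also a cell in another library. One KPC-3403 cell went against its class: it met the rule with 3 UMIs of Cd79b and had 0 of Cd79a, Ms4a1, Ighm, Igkc, Cd74 and H2-Aa. That cell had 214 UMIs of Mpo, 258 of Elane, 286 of Prtn3 and 100 of Ctsg, proteases and peroxidase of granulocyte precursors, among 13962 UMIs. It is named the Mpo-positive cell below, and results that it touches are given with and without it.

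B cells recognise antigen through a surface immunoglobulin, built from heavy and light chains, that signals through the Cd79a and Cd79b proteins. A resting B cell carries IgM and IgD, encoded by Ighm and Ighd, and shows antigen to T cells on MHC class II. After activation a B cell can switch the heavy chain to a constant gene such as Ighg1, and can become a plasma cell that loses the B cell programme and secretes antibody joined, for IgM and IgA, by the J chain encoded by Jchain. Pancreatic tumours of mice and humans are known to hold B cells, often beside T cells.

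B cells were a larger share of the KPC-4545 library than of the KPC-3403 library. They made up 171 of 536 cells in KPC-4545, 31.9% (exact Clopper-Pearson interval 28.0 to 36.0%), and 124 of 1217 in KPC-3403, 10.2% (8.55 to 12.03%), a ratio of 3.13. T cells, taken as at least 3 UMIs of the Cd3 genes and 0 of the 3 B cell genes, made up 23.9% and 15.5%. Myeloid cells, taken as at least 3 UMIs of Tyrobp and Fcer1g and 0 of the B cell genes, the Cd3 genes and Nkg7, made up 9.14% and 14.8%. Within these 3 leukocyte classes B cells were 49.1% (43.8 to 54.5%, of 348) in KPC-4545 and 25.2% (21.4 to 29.2%, of 493) in KPC-3403. There were 1.34 B cells per T cell in KPC-4545 and 0.656 in KPC-3403, so B cells outnumbered T cells in the first library and not in the second. B cells held 17.7% of all UMIs of cells in KPC-4545 and 5.64% in KPC-3403.

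Few such cells were found after the sort. In the enriched KPC-4545 library 0 of 1692 cells met the rule, where the exact interval reaches 0.218%. In enriched KPC-3403 4 of 2575 did, 0.155% (0.0423 to 0.397%). No cell of either enriched library met the T cell rule. Without the cells whose barcode was shared between libraries the B cell shares were 32.4% and 11.4%. Without the Mpo-positive cell and 8 cells with high Jchain described below, the KPC-3403 share was 9.52%.

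**Figure D1:**
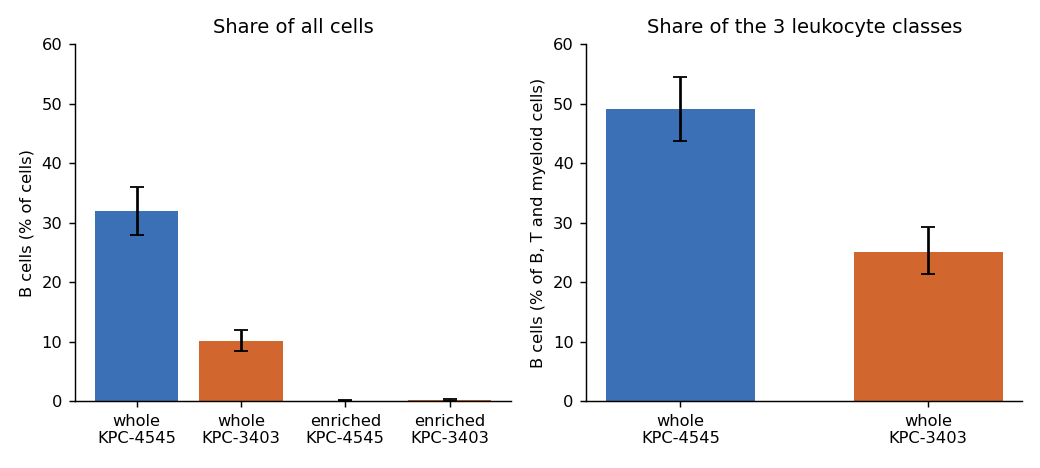
B cells as a percent of all cells in the 4 libraries (left) and of B, T and myeloid cells together in the 2 whole libraries (right). Bars are shares, error bars exact 95% intervals for counting error, with 1 library per bar; the KPC-4545 bars, 31.9% and 49.1%, stand above the KPC-3403 bars, 10.2% and 25.2%.

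Most of the cells lay well inside the rule. Exactly 3 UMIs of Cd79a, Cd79b and Ms4a1 together were found in 3 KPC-4545 and 2 KPC-3403 cells, exactly 4 in 7 and 7, and 5 or more in 161 and 115. Just outside it, 2 and 4 cells had exactly 2 UMIs and no Cd3 UMI, and 1 and 3 cells with at least 3 UMIs were left out by a Cd3 UMI. The B cells had a median of 3183 UMIs in KPC-4545 (1348 to 17758) and 3091.5 in KPC-3403 (1008 to 27701), with a median of 1111 and 1138 genes. T cells had a median of 4074.5 and 4261 UMIs, so B cells were shallower than T cells in both libraries. Myeloid cells had a median of 3963 and 2355, above the B cells in KPC-4545 and below them in KPC-3403. Genes of ribosomal proteins gave a median of 35.7% and 34.5% of the UMIs of a B cell, and 30.0% and 32.8% of those of a T cell.

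The 3 genes of the rule had the following levels, given as UMIs per 1000000 UMIs of the summed B cells (CPM). Cd79a (ENSMUSG00000003379, chr7:24897381-24902197 on the plus strand of GRCm38), a signalling chain of the B cell receptor, was at 2115 CPM in KPC-4545 and 1912 in KPC-3403, with 0 to 27 UMIs per cell and a median of 7 and 8. Cd79b (ENSMUSG00000040592, chr11:106311341-106314762, minus strand), its partner chain, was at 759 and 689 CPM with a median of 2 UMIs per cell in both. Ms4a1 (ENSMUSG00000024673, chr19:11249675-11266241, minus strand), which encodes the surface protein CD20, was at 561 and 381 CPM with a median of 1 UMI per cell in both. Cd79a was seen in 100% and 99.2% of the cells, Cd79b in 88.3% and 83.9%, and Ms4a1 in 81.3% and 71.0%. Cd79a therefore carried the rule in nearly every cell. The KPC-3403 levels include 8 cells, described below, that held 27.5% of its B cell UMIs, so no order of the lines is read from them.

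Markers that the rule did not use followed the label, although they come from the same cells. Ly6d, a surface protein of the B lineage, was at 1527 CPM in KPC-4545 and 1114 in KPC-3403 and was seen in 94.7% and 88.7% of B cells. It was at 0 in the T cells of both lines and in the myeloid cells of KPC-4545, and at 186 CPM in the myeloid cells of KPC-3403. Pax5, the transcription factor that holds B cell identity, was at 160 and 132 CPM, with 0 UMIs in T and myeloid cells. Without the Mpo-positive cell and the 8 cells with high Jchain, Pax5 was at 189 CPM in KPC-3403. No order of the lines is therefore read from Ly6d or Pax5 here. Summed over 8 markers, of which 3 chose the cells, B cells had 7872 and 22096 CPM, the latter 9003 without the Mpo-positive cell and the 8 cells with high Jchain described below, T cells 125 and 79.8, and myeloid cells 52.6 and 261.

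**Figure D2:**
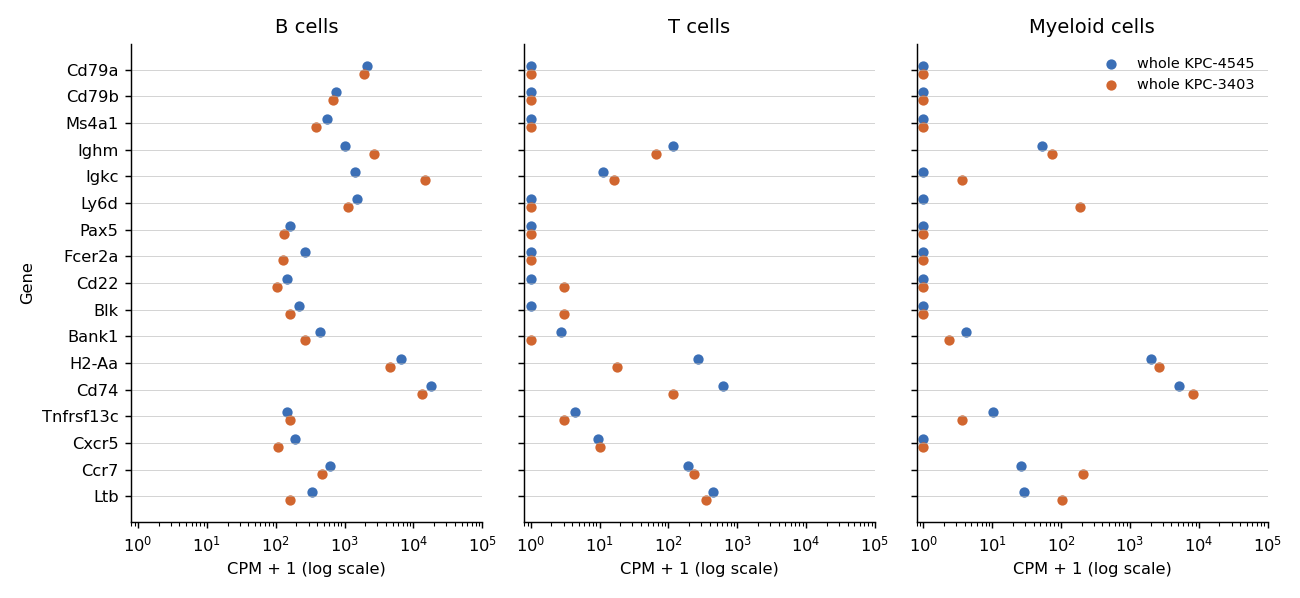
CPM plus 1 of 17 B cell genes on a log axis in the summed B, T and myeloid cells of each whole library (1 point per library and gene). Cd79a, Cd79b and Ms4a1 are at 0 in T and myeloid cells because those classes were defined without them; Ly6d, Pax5 and Fcer2a are at 0 in T cells, while Ccr7 and Ltb are also found there, and Cd74 and H2-Aa are also high in myeloid cells.

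For differences between the lines, a gene was counted when its CPM differed by 2-fold or more and both sums together held at least 20 UMIs. Over all B cells 5036 genes had 20 UMIs, of which 355 (7.05%) were higher in KPC-4545 and 242 (4.81%) higher in KPC-3403, 11.9% in all. Those figures lean on 9 KPC-3403 cells, the 8 with high Jchain and the Mpo-positive cell, since the former held 27.5% of the KPC-3403 B cell UMIs and so lowered the CPM of other genes in that sum. Without these 9 cells, 4706 genes had 20 UMIs, and 150 (3.19%) were higher in KPC-4545 and 177 (3.76%) in KPC-3403, 6.95% in all. The median log2 difference over all genes, KPC-4545 minus KPC-3403, was 0.21 with these cells and -0.03 without them. The split also turned with the scaling of all B cells: trimmed-mean (TMM) scaling gave 198 genes higher in KPC-4545 and 302 in KPC-3403, and leaving immunoglobulin and haemoglobin genes out of the totals gave 141 and 302. For that reason the levels in the next paragraphs are those of the 171 KPC-4545 cells and the other 115 KPC-3403 cells, and counts with all 124 cells are given beside them.

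All 12 listed genes of the B cell surface and coreceptors had 20 UMIs, and 0 of them differed by 2-fold, where 6.95% of all genes did, so that 0 of 12 is near the share of all genes. Their median log2 difference was 0.00. Cd37, a tetraspanin, was at 789.5 CPM in KPC-4545 and 840 in KPC-3403. Cd24a, a surface glycoprotein, was at 409 and 404 CPM, and Ly86, which pairs with the Toll-like receptor relative Cd180, at 341 and 287 CPM. Cd22, an inhibitory coreceptor, was at 147 and 149 CPM. The only one past 2-fold over all B cells was Fcer2a, the low-affinity IgE receptor of follicular B cells, at 264 and 128 CPM (2.06-fold, 1.54 to 2.77). Without the 9 cells its level in KPC-3403 was 183 CPM and the ratio 1.44 (1.08 to 1.94), under 2-fold.

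All 16 listed signalling genes below the receptor were measured and 0 differed by 2-fold, near the 6.95% of all genes, with a median log2 difference of 0.13. Bank1, a scaffold, was at 436 and 385 CPM, Blnk, the adaptor of the receptor, at 217 and 202, and Inpp5d, a phosphatase that dampens its signal, at 300.2 and 271. Syk, the kinase that binds Cd79a and Cd79b, was at 189 and 282 CPM. Btk, a kinase further along, was at 61.8 CPM in KPC-4545 and 27.8 over all KPC-3403 B cells (2.22-fold, 1.19 to 4.35), and at 1.66-fold (0.88 to 3.32) without the 9 cells, an interval that includes no difference.

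Of 14 listed B cell transcription factors, all measured, 0 differed by 2-fold, near the 6.95% of all genes, with a median log2 difference of -0.15. Ebf1, which acts with Pax5 to set the B lineage, was at 1304 CPM in KPC-4545 and 1259 in KPC-3403, and Mef2c, a factor of B cell responses, at 689 and 720. Klf2, which keeps lymphocytes quiescent and circulating, was at 414 and 579 CPM, and Pou2af1, a coactivator of immunoglobulin genes, at 184 and 223. Irf8 was 2.15-fold (1.55 to 3.01) higher in KPC-4545 over all B cells, at 215 and 100.2 CPM, and 1.59-fold (1.14 to 2.24) without the 9 cells.

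Antigen presentation by MHC class II had the highest summed level of the 20 lists. The 12 genes summed to 34865 CPM in KPC-4545 and 34202 in KPC-3403. T cells of the same libraries had 1614 and 320 CPM, and myeloid cells 12292 and 16220. Cd74, the invariant chain, was at 17920 and 17741 CPM, and the class II chains H2-Aa, H2-Eb1 and H2-Ab1 were at 6501 and 6432, 3839 and 3749, and 2552 and 2861 CPM. None of the 12 differed by 2-fold, with all B cells or without the 9 cells. Without the 9 cells 0 of 8 measured costimulation genes differed by 2-fold: Cd83, which stabilises class II on the surface, was at 1187 and 940 CPM, Cd69, an early activation marker, at 294 and 319, and Cd86, a ligand of Cd28 on T cells, at 66.8 and 61.1. Pdcd1lg2, a ligand of PD-1, was 2.02-fold (0.84 to 5.38) higher in KPC-4545 over all B cells, an interval that includes no difference.

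Receptors that place B cells in tissue were measured for 11 of 13 listed genes, and 0 differed by 2-fold without the 9 cells (median log2 difference 0.34). Ccr7, the receptor for lymph node entry and the T cell zone, was at 604 and 669 CPM. Cxcr4 was at 315 and 274 CPM, P2ry10 at 297 and 244, and Cxcr5, the receptor for B cell follicles, at 192 and 151. Over all B cells Ccr6 (2.40-fold, 1.43 to 4.17) and S1pr1 (2.06-fold, 1.39 to 3.10), the receptor for leaving tissue, were past 2-fold in KPC-4545, and without the 9 cells they were at 1.68-fold (1.00 to 2.91) and 1.44-fold (0.97 to 2.16). For survival, Tnfrsf13c, the receptor for the factor BAFF, was at 144 and 199 CPM and Tnfrsf13b at 71.8 and 79.7, and 0 of 6 measured genes of that list differed by 2-fold. Of the cytokine list 2 of 10 genes were measured: Ltb, a chain of lymphotoxin, at 335 and 231 CPM (1.45-fold, 1.12 to 1.89, and 2.08-fold, 1.61 to 2.70, over all B cells, past 2-fold in KPC-4545), and Tgfb1 at 150 and 247 CPM. Il10, a cytokine of regulatory B cells, had 0 UMIs in all 295 cells. The exact interval allows a share of cells with a UMI of up to 2.13% in KPC-4545 and 2.93% in KPC-3403. Of 4 measured Toll-like receptor genes 0 differed by 2-fold, and Unc93b1, which delivers the endosomal receptors, was at 244 and 311 CPM.

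Cells were also counted by markers of B cell subsets. Fcer2a and Ighd were seen together in 63 cells of KPC-4545, 36.8% (29.6 to 44.5%), and 30 of KPC-3403, 24.2% (16.96 to 32.7%), intervals that overlap. Vpreb3, a relative of the surrogate light chain, was seen in 87 of 171 and 62 of 124 cells, and Cd93, a marker of transitional cells, in 1 and 6 cells (0.585% and 4.84%). Cr2 and Cd9, which together mark marginal zone B cells, were seen together in 2 cells of each line, and Cd5, a marker of B1 cells, in 0 of 295. The precursor genes Rag1, Rag2, Dntt, Vpreb1, Vpreb2 and Igll1 had 0 UMIs in all 295 cells. Dividing cells, taken as at least 3 UMIs over 7 mitotic genes, were 4 in each line (2.34%, 0.641 to 5.88%, and 3.23%, 0.886 to 8.05%).

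By list, 0 of 9 measured follicular and transitional genes, 0 of 4 marginal zone genes, 0 of 1 B1 gene and 0 of 1 memory gene differed by 2-fold without the 9 cells, and no germinal centre or precursor gene had 20 UMIs. Over all B cells Dtx1, of marginal zone cells, was higher in KPC-4545 (2.20-fold, 0.97 to 5.42), and Cd9 (4.73-fold, 1.54 to 19.3) and Ahnak (2.22-fold, 0.84 to 6.51) were higher in KPC-3403, on 4 and 7 UMIs in KPC-4545. Mzb1, also of the marginal zone list, was at 371 and 380 CPM, Plac8 at 457 and 505 CPM with 527 and 773 in free RNA, and Cr2, a complement receptor, at 110.2 and 114. At the depth of these cells a gene of low level is often missed, so a cell without a UMI of a marker was not shown to lack it.

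Most B cells had UMIs of Ighm, and few had UMIs of a switched gene. Ighm (chr12:113418558-113422730, minus strand, GRCm38) was seen in 154 cells of KPC-4545, 90.1% (84.6 to 94.1%), and 104 of KPC-3403, 83.9% (76.2 to 89.9%). Ighm was also found in 31.2% and 21.2% of T cells, which had a median depth above that of the B cells, and was at 113 and 45.2 CPM in free RNA, taken as all barcodes of at most 100 UMIs. Ighd (chr12:113406604-113416324, minus strand) was seen in 62.6% (54.9 to 69.8%) and 69.4% (60.4 to 77.3%) of B cells but in 0.781% and 1.06% of T cells, and Ighm and Ighd together in 58.5% and 62.1% of B cells. With each cell thinned to 1000 UMIs, Ighd was seen in 27.5% (20.9 to 34.8%) and 45.2% (36.2 to 54.3%) of cells. Its level over all B cells was 369 and 347 CPM, in the other order, and 369 and 497 CPM without the 9 cells (1.35-fold, 1.10 to 1.64), so no order of the lines is read from Ighd.

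A switched constant gene, of the Ighg, Igha or Ighe kind, was seen in 8 cells of KPC-4545, 4.68% (2.04 to 9.01%), and 12 of KPC-3403, 9.68% (5.10 to 16.3%). T cells had 3.12% and 2.65%, and without the 9 cells the KPC-3403 share was 3.48% (0.956 to 8.67%), so at 1 UMI the shares overlapped those of T cells. Of the 8 KPC-4545 cells, 5 had no UMI of Ighm or Ighd. At a minimum of 2 UMIs a switched gene was seen in 6 of 171 KPC-4545 B cells, 3.51% (1.30 to 7.48%), in 0 of 115 KPC-3403 B cells without the 9 cells, and in 0 of 128 and 0 of 189 T cells. Igkc, the constant gene of the kappa light chain, was seen in 91.8% and 88.7% of B cells and in 0.781% and 5.82% of T cells. Its level was 1427 CPM in KPC-4545 and 14906 in KPC-3403 over all B cells, and 1427 and 1549 without the 9 cells. The gap of 10.4-fold in Igkc (9.73 to 11.2) thus fell to 1.09-fold (0.98 to 1.21) when 9 of 124 cells were left out. Ighm behaved likewise, at 1015 and 2686 CPM with them (2.65-fold, 2.41 to 2.91) and 1015 and 1427 without them (1.41-fold, 1.25 to 1.58).

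**Figure D3:**
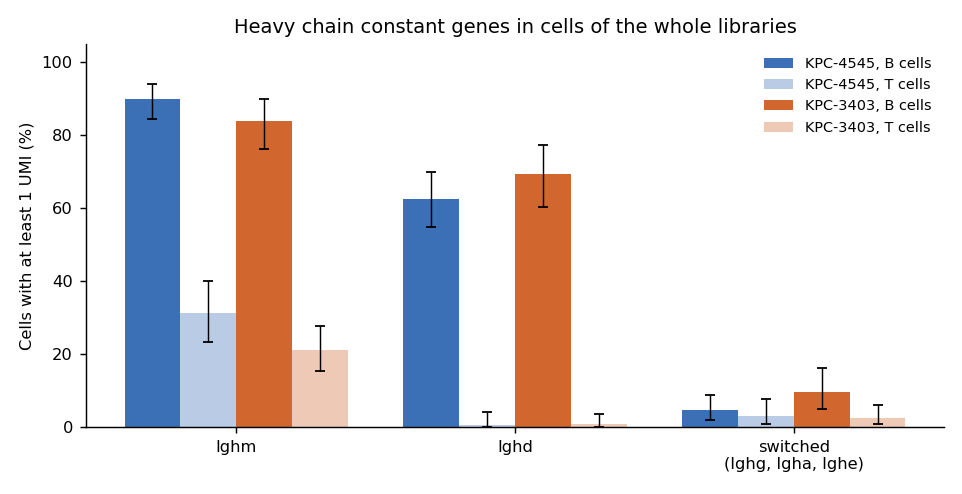
Percent of B cells and of T cells of each whole library with at least 1 UMI of Ighm, of Ighd or of a switched heavy chain constant gene, with exact 95% intervals for counting error. Ighd separates the classes, at 62.6% and 69.4% of B cells against 0.781% and 1.06% of T cells, whereas Ighm was also seen in 31.2% and 21.2% of T cells and switched genes in 3.12% and 2.65%.

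The variable genes showed a B cell population of many receptors. The library chemistry reads RNA from its 5′ end, where the variable segment lies, so variable genes could be read in most cells. A cell was given a heavy variable gene when it had at least 3 Ighv UMIs and 80% or more of them came from 1 gene. In KPC-4545, 63 of 70 cells with enough UMIs met this and used 37 different genes, led by Ighv1-26 in 5 cells. In KPC-3403, 36 of 44 cells used 26 different genes, led by Ighv1-64 and Ighv1-81 in 3 cells each. Kappa variable genes were called in 135 of 153 and 101 of 113 cells, which used 51 and 43 different genes of the 160 annotated. The most used were Igkv10-96 with 10 cells in KPC-4545 and Igkv1-110, Igkv2-137 and Igkv3-2 with 6 cells each in KPC-3403. A heavy and a light gene were both called in 54 cells of KPC-4545, in 53 different pairs, and in 32 cells of KPC-3403, in 30 different pairs. The pairs found in 2 cells each were Ighv3-6 with Igkv10-96 in KPC-4545, and Ighv1-39 with Igkv1-110 and Ighv1-64 with Igkv12-41 in KPC-3403. A shared pair of genes is not a shared sequence, and near-identical variable genes can exchange reads, so these are pairs of gene names and not clones.

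A set of 8 of the 124 KPC-3403 B cells stood apart through Jchain (chr5:88519809-88527891, minus strand, GRCm38). They had 1487, 490, 384, 284, 206, 203, 90 and 43 UMIs of Jchain, and are called cells 1 to 8 in that order. Any other B cell had at most 5 UMIs in KPC-4545 and 2 in KPC-3403; the minimum of 10 that marks the 8 was chosen after the values were seen. The 8 cells were 6.45% of KPC-3403 B cells (2.83 to 12.3%), against 0 of 171 in KPC-4545, where the exact interval reaches 2.13%. They were large libraries, with 13261 to 27701 UMIs and a median of 17947.5, where the other 115 cells had a median of 3050. None of the 8 had a barcode shared with another library, and a doublet score that removed 12 cells of the library removed 0 of them.

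**Figure D4:**
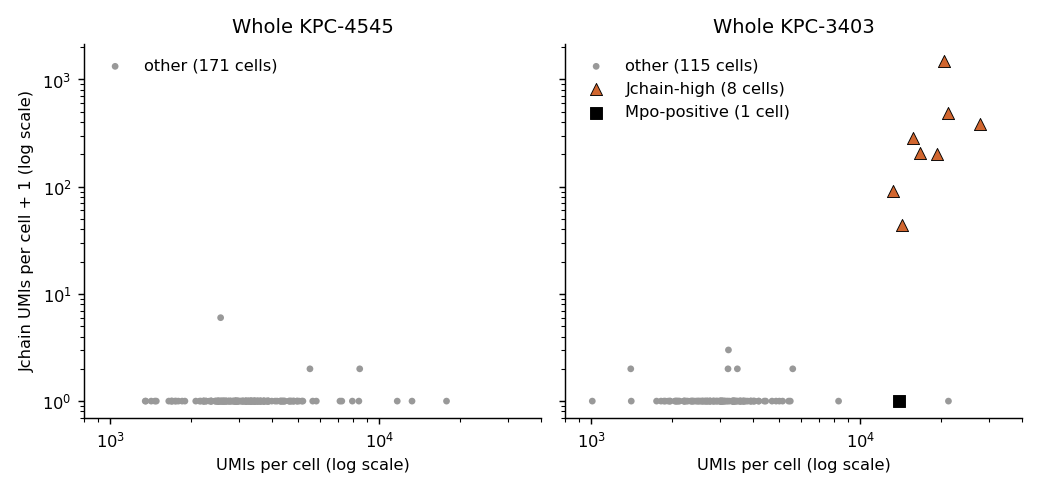
UMIs of Jchain plus 1 against total UMIs for each B cell, both on log axes, KPC-4545 left and KPC-3403 right. Triangles are the 8 cells with at least 10 Jchain UMIs, which lie at 13261 to 27701 total UMIs and 43 to 1487 Jchain UMIs; the square is the Mpo-positive cell and the small points are all other B cells, with at most 5 Jchain UMIs.

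Each of these cells was dominated by 1 heavy chain constant gene, which gave 98.5 to 100% of its heavy constant UMIs. Cell 1 used Ighm, with 885 UMIs. Cells 2 and 3 used Ighg2c, with 1503 and 1679 UMIs, and cell 4 used Ighg2b, with 2954. Cells 5, 6 and 8 used Ighg1, with 1698, 1661 and 670 UMIs, and cell 7 used Ighg3, with 2449. Thus 7 of 8 were switched to an IgG gene and 1 was not, and Igha led in none. Ighg2b and Ighg2c are close relatives, so reads may be split between them. Immunoglobulin genes made up 15.03 to 73.2% of the UMIs of a cell. Their variable genes differed: Ighv7-1 with Igkv12-46 in cell 1, Ighv1-53 with Igkv4-72 in cell 2, Ighv1-52 with Igkv4-55 in cell 5, Ighv1-55 with Igkv4-72 in cell 6 and Ighv1-81 with Igkv1-135 in cell 7. Cells 3 and 4 both had Ighv1-64 with Igkv12-41, but cell 3 used Ighg2c and cell 4 Ighg2b. Cell 8 used a lambda light chain, with Ighv1-85, 930 UMIs of Iglv1, 413 of Iglc1 and 11 of Igkc. Lambda variable UMIs, with Iglv1 as the top gene, were also found in cells 1 to 7. Cell 6 had 908 of them beside 4903 kappa variable UMIs. Cells 4, 2 and 3 had 185, 154 and 117, and cells 7, 5 and 1 had 31, 21 and 2. The source of the lambda UMIs in these cells was not tested.

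The B cell programme was low in these 8 cells and secretory genes were high. Levels are compared with the other 115 KPC-3403 B cells, as a description, and the genes were picked after their values were seen among those found in most of the 8 cells. Xbp1, the transcription factor of the secretory response, was at 1928 CPM against 13.3 (145-fold, 61.5 to 450.5), with 10 to 130 UMIs in each of the 8 cells. Creld2, a chaperone-like protein of the endoplasmic reticulum, was at 1193 CPM against 18.6 (64.2-fold, 30.5 to 162), with 3 to 64 UMIs per cell. Hsp90b1, the endoplasmic reticulum chaperone GRP94, was at 5090 CPM against 306 (16.7-fold, 13.7 to 20.5), and Mzb1, its partner in B cells, at 4618 against 380 (12.2-fold, 10.1 to 14.7). Genes of protein import, folding and export were higher as well, among them Ssr4 (11.98-fold), Pdia4 (16.1-fold), Manf (12.5-fold), Sdf2l1 (11.3-fold), Edem1 (21.1-fold), Fkbp11 (57.1-fold, 14.9 to 486, on 2 UMIs in the other cells) and Lman1 (32.5-fold). Jchain itself was at 21486 CPM against 15.9, which is the value that chose the cells.

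In the other direction, H2-Aa was at 27.0 CPM against 6432 (238.5-fold lower, 93.0 to 876), with 0 or 1 UMI in each of the 8 cells, and Cd74 was at 3196 against 17741 (5.55-fold lower, 5.06 to 6.11). Pax5 and Ighd had 0 UMIs in all 8. Against a floor of 3 UMIs over the group, Pax5 was at least 9.33-fold lower, Bank1 at least 19.0-fold, Cd22 at least 7.36-fold, Ccr7 at least 33.1-fold and Fcmr, a receptor for IgM, at least 29.0-fold. Ebf1 had 3 UMIs in all (62.3-fold lower, 21.2 to 303). The rule genes, which the 8 cells had to carry to be chosen, had 3 to 11 UMIs of Cd79a, 1 to 24 of Cd79b and 0 to 2 of Ms4a1 per cell. Pou2af1 was not lower, at 337 CPM against 223 (1.51-fold higher, 1.04 to 2.17). Each cell had a UMI of 3 to 5 of the 5 plasma cell markers Jchain, Sdc1, Xbp1, Tnfrsf17 and Derl3, of which Jchain chose it. The transcription factor gene Irf4 did not stand out. Irf4 was at 80.9 CPM against 128 (1.58-fold lower, 0.82 to 3.26), an interval that includes no difference. Prdm1 had UMIs in cells 2, 6 and 8 only, with 1, 1 and 3.

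Slpi (chr2:164354070-164389095, minus strand, GRCm38), a secreted inhibitor of leukocyte proteases, divided the 8 cells. It had 2188, 2132, 1394 and 1159 UMIs in cells 6, 2, 5 and 8, 127 and 60 in cells 3 and 1, and 5 and 1 in cells 4 and 7. The 3 cells with Ighg1 were all among the 4 highest. Slpi was at 47637 CPM over the 8 cells and 18.6 over the other 115, and in free RNA it was at 392 CPM in KPC-4545 and 520 in KPC-3403. Mt1, a metallothionein, had 393 UMIs in cell 2, 52 in cell 8 and at most 5 in any other of the 8 cells. Cell 8 also had 28 UMIs of Col3a1 and 10 of Col1a1, collagen genes of fibroblasts, whose part in the result was not tested.

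Promoters of genes high in the 8 cells are shown because 2 of them hold the endoplasmic reticulum stress element, a motif bound by factors of the unfolded protein response. The motif was searched as CCAAT, then 9 bases of any kind, then CCACG, on both strands, in the 250 bases before each gene start, in the RefSeq promoter table of GRCm38.p6. It was found in 37 of 32851 promoters (0.113%), and in 2 of the 21 with a table entry among 25 genes picked as higher in the 8 cells, and in 0 of 22 among 25 picked as lower. Those 2 are Creld2, at chr15:88819396-88819645 on the plus strand, with the match 126 to 108 bases before the start, and Hsp90b1, at chr10:86705510-86705694 on the minus strand, with matches 212 to 194 and 107 to 89 bases before the start. The promoter of Jchain, chr5:88527898-88528147 on the minus strand, has no such match and is printed beside them. Capitals mark the matches, each sequence runs 5′ to 3′ along its gene, and 65 transcribed bases next to the Hsp90b1 start were left out.
Creld2: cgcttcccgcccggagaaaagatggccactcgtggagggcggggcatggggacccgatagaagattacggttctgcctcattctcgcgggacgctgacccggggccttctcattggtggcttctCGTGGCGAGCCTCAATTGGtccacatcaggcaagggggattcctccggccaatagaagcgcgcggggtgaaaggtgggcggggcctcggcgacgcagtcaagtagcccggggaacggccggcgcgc
Hsp90b1: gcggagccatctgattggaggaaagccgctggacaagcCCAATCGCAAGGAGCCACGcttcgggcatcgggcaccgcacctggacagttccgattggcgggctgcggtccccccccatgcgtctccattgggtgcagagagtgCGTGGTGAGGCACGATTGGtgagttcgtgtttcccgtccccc
Jchain: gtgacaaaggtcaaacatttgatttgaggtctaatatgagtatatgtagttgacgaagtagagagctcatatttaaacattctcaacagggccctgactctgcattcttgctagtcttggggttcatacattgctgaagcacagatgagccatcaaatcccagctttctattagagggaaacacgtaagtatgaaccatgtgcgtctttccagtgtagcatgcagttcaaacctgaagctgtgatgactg
The octamer ATGCAAAT, known from immunoglobulin promoters, was in 1.60% of promoters and in none of the 21 or the 22, and the motif core TGACGTGG in 0.563% and in none. No immunoglobulin gene was among the genes picked as higher, so nothing is read from the absence of the octamer. A match is a stretch of letters, and whether any factor binds there was not measured.

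The plasma cell list followed these 8 cells. Over all B cells 7 of its 8 measured genes were past 2-fold higher in KPC-3403, where 4.81% of all genes were: Jchain 507-fold, Sdc1 26.7-fold (4.35 to 1098, on 1 UMI in KPC-4545), Creld2 20.6-fold, Derl3 17.05-fold (5.48 to 85.7, on 3 UMIs), Xbp1 16.2-fold, Tent5c 8.65-fold and Sec11c 2.67-fold. Without the 9 cells 3 of the 10 genes had 20 UMIs and 0 were higher in KPC-3403. Xbp1 was then higher in KPC-4545, at 33.4 against 13.3 CPM, with an interval of the 2.51-fold ratio (0.92 to 8.57) that includes no difference. Bst2 (4.25-fold, 2.90 to 6.40) and Zbp1 (3.13-fold, 1.73 to 5.93), listed as interferon genes, were higher in KPC-3403 over all B cells and at 1.22-fold (0.70 to 2.09) and 1.09-fold (0.46 to 2.51) without the 9 cells. Mzb1, on the marginal zone list, changed from 4.15-fold (3.57 to 4.83) to 1.03-fold (0.83 to 1.27).

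The genes with the firmest gaps between the lines over all B cells were nearly all of these kinds on the KPC-3403 side. By the rule of naming, which ranks genes by the counting bound nearest to no difference and sets immunoglobulin variable genes aside, Ighg3 came first, and Slpi, Ighg1, Ighg2b, Ighg2c and Jchain followed. Slpi was at 10.0 CPM in KPC-4545 and 13139 in KPC-3403. Ighg3 had 0 UMIs in KPC-4545 and was at least 910-fold higher in KPC-3403, while Ighg1 was 896-fold (384 to 2762), Ighg2b 657-fold (281 to 2026) and Ighg2c 592-fold (272 to 1613) higher. A single KPC-3403 cell held 99.8% of the UMIs of Ighg3, another 99.97% of those of Ighg2b, and 1 cell 52.6% of those of Ighg2c. For Ighg1, Jchain and Slpi the top cell held 42.1%, 46.6% and 30.9%. Most UMIs of each of the other named genes were also in 1 cell. Mpo, Elane and Ctsg had UMIs in the Mpo-positive cell only, and Prtn3 had all but 1 UMI there. Gm43218 had its 81 UMIs in cell 5, and 82.6% of the UMIs of Mt1 were in cell 2. With all 8 Jchain-high cells left out, Mt1 had a log2 difference of -4.87 on 1 UMI in KPC-4545, but that set kept the Mpo-positive cell. The other 115 KPC-3403 B cells, without the Mpo-positive cell, held 4 UMIs of Mt1. Those UMIs were too few for Mt1 to be counted, so no gap between the lines is read from it there. Of the 242 genes, 54 had most of their KPC-3403 UMIs in 1 cell.

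**Figure D5:**
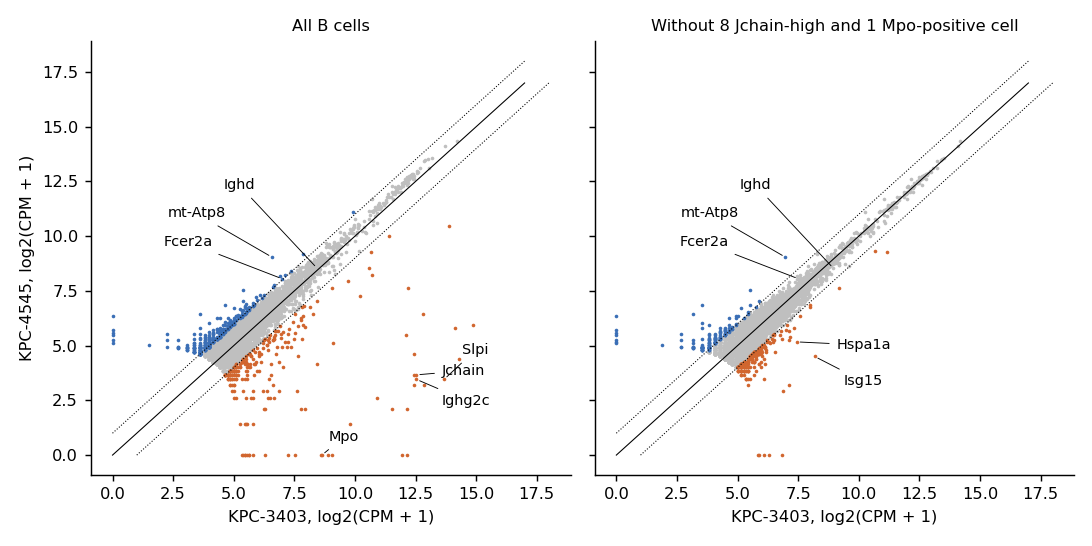
log2(CPM + 1) of each gene with at least 20 UMIs in KPC-3403 (x axis) and KPC-4545 (y axis) B cells, for all 295 cells (left) and without the 8 Jchain-high and the Mpo-positive cell (right). Coloured points differ by 2-fold or more, dotted lines mark 2-fold; at left 355 genes lie above and 242 below, with Slpi, Jchain and Ighg2c far to the right, and at right 150 and 177.

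On the KPC-4545 side the firmest gap was mt-Atp8 (chrM:7766-7969, plus strand), a subunit of the mitochondrial ATP synthase whose gene overlaps mt-Atp6. It had 315 UMIs in 144 of 171 cells and 51 in 39 of 124 cells, or 526 and 94.7 CPM (5.55-fold, 4.12 to 7.62). The gap was 6.13-fold in T cells, 5.73-fold in myeloid cells, and 1834 against 531 CPM in free RNA, the same direction in all 3 classes and outside cells. Without the 9 cells mt-Atp8 was 4.21-fold (3.09 to 5.85) higher. Cd200, which encodes a surface ligand that restrains myeloid cells, was at 75.1 and 18.6 CPM (4.05-fold, 2.01 to 9.005) and 3.14-fold (1.52 to 7.31) without the 9 cells, in 33 and 8 cells, and was 3.85-fold higher in the T cells of KPC-4545 too. Tsc22d3, a glucocorticoid-induced gene, was at 581 and 234 CPM (2.48-fold, 2.02 to 3.07), and under 2-fold without the 9 cells. Amz2 (12.1-fold, 3.05 to 105.3), Nt5dc1 (9.89-fold, 2.43 to 86.8), Tfb2m (6.59-fold, 1.98 to 34.4) and Aak1 (8.09-fold, 1.94 to 71.9) had 2 or 3 UMIs in KPC-3403, and Zfp445 had 6 (4.95-fold, 2.05 to 14.4). Without the 9 cells Amz2 was at 8.48-fold (2.13 to 73.6), Nt5dc1 at 6.91-fold (1.70 to 60.6) and Tfb2m at 4.61-fold (1.38 to 24.0). Aak1 then had a log2 difference of 2.50, and Zfp445 was at 5.18-fold (1.84 to 20.1). Hist1h2ap (4.58-fold), a histone gene of dividing cells, had 45.5% of its KPC-4545 UMIs in 1 cell of 17758 UMIs with 6 of Top2a and 4 of Mki67. Rgs1 (17.1-fold, 2.72 to 709.9) had 1 UMI in KPC-3403 and 47.4% of its UMIs in 1 of 8 cells, and Wfdc17 (3.15-fold), a gene of myeloid cells at 1418 and 1814 CPM there, 36.4% in 1 cell. With the 9 cells left out Hist1h2ap was at 4.14-fold (2.47 to 7.36), Rgs1 at 11.9-fold (1.90 to 496) and Wfdc17 at 2.20-fold (1.35 to 3.71).

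Without the 9 cells 15 genes, immunoglobulin variable genes included, were higher in KPC-3403 with a counting bound past 2-fold, and 4 of the 5 others had most of their UMIs in 1 further cell. Isg15, an interferon-induced ubiquitin-like protein, was at 21.7 and 290 CPM (13.3-fold, 7.49 to 25.9), with 87.2% of its KPC-3403 UMIs in a cell of 8293 UMIs and 277 and 348 CPM in free RNA. The same cell held 90.9% of the UMIs of Car2, 90.1% of Hba-a1, 87.0% of Hba-a2, 87.5% of Fech and 90.5% of Alas2, genes of red cell precursors, and 36.1% of its UMIs were erythroid markers beside 4 of Cd79a and 6 of Cd79b. One KPC-4545 cell was similar, with 52.7% of 7248 UMIs from erythroid markers and 12 UMIs of Cd79a. With both of these cells left out as well, Isg15 was at 20.3 and 38.0 CPM on 12 and 14 UMIs, and 151 genes (3.24%) were higher in KPC-4545 and 158 (3.39%) in KPC-3403. Car2 was then at 6.76 and 10.9 CPM on 4 UMIs in each line. Hba-a1 and Hba-a2 stayed higher in KPC-3403, at 43.9 and 231 CPM and at 35.5 and 215 CPM, and free RNA had 8272 and 15520 CPM of Hba-a1 and 7048 and 12194 of Hba-a2.

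Genes past 2-fold higher in KPC-3403 numbered 177 without the Jchain-high cells and the Mpo-positive cell. Of these, 20 had most of their UMIs in 1 cell. Among those spread over more cells, the ones given here were low. Zfand3 was at 16.7 and 69.1 CPM (4.14-fold, 1.93 to 9.62) in 10 and 22 cells, Ppp1r35 at 10.0 and 45.2 (4.51-fold, 1.70 to 13.97) in 6 and 15, and Gm47283 at 50.1 and 138 (2.76-fold, 1.73 to 4.48) in 26 and 33. Ctrb1, a digestive enzyme of pancreatic acinar cells, was at 15.02 and 61.1 CPM (4.07-fold, 1.81 to 9.99) where free RNA had 1655 and 3360 CPM. On the other side Pnn (2.996-fold, 1.63 to 5.94), Mrps34 (2.74-fold, 1.40 to 5.85) and Timm17b (2.51-fold, 1.46 to 4.56) were higher in KPC-4545, in 36 to 46 of 171 cells.

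Among stress and activation genes, 1 of 18 early response, 1 of 10 heat shock and 1 of 10 interferon genes were past 2-fold without the 9 cells, near the 6.95% of all genes, and nothing is read from these counts about the lists. Of 18 measured early response genes, which tissue dissociation is known to induce, only Egr1 was past 2-fold without the 9 cells, at 51.7 and 128 CPM (2.46-fold, 1.54 to 4.01), and it was at 286 and 355 CPM in free RNA. Junb was at 1347 and 1488 CPM, Jund at 871 and 1076, Btg2 at 536 and 592, and Nr4a1, which reports receptor signalling, at 614 and 832 CPM (1.35-fold, 1.16 to 1.58). Atf3, past 2-fold over all B cells (2.59-fold, 0.94 to 8.24), had under 20 UMIs without the 9 cells. Among 10 heat shock genes Hspa1a alone was past 2-fold, at 35.1 and 173 CPM (4.93-fold, 2.97 to 8.49), in 11 and 6 cells, with 38.5% of the KPC-3403 UMIs in 1 cell. When every B cell with 3 or more UMIs of other cells' markers was left out, Hspa1a was higher in KPC-4545 instead, with a log2 difference of 0.69. Erythroid markers alone reached 3 UMIs in 23 KPC-4545 and 79 KPC-3403 B cells, so that removal could fall unequally on the lines. Hsp90ab1 was at 1644 and 2091 CPM and Hspa8 at 915 and 986. Of 10 measured interferon genes only Isg15 was past 2-fold, in the single cell described above, and Ifi27l2a and Ly6a were at 721 and 847 and at 517 and 454 CPM. Of 6 measured proliferation genes 0 differed by 2-fold, with Hmgb2 at 322 and 313 CPM, Pcna at 114 and 117 and Top2a at 31.7 and 29.2.

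Markers of other cell types were low in the B cells except for those of red cells. T cell markers summed to 10.0 and 20.4 CPM, with 2 of 9 seen in either line and the 3 Cd3 genes at 0 by the rule, where T cells had 5380 and 4421. NK cell markers summed to 6.68 and 29.7 CPM (2 and 3 of 6 seen), macrophage or monocyte markers to 3.34 and 9.28 (2 and 4 of 7), neutrophil markers to 8.35 and 24.1 (3 and 4 of 7) and dendritic cell markers to 0 and 7.43 (0 and 1 of 6). Epithelial or tumour markers summed to 15.02 and 78.0 CPM (3 and 5 of 6), fibroblast markers to 15.02 and 152 (3 and 5 of 6) and endothelial markers to 63.4 and 48.3 (1 and 2 of 5). Most of the fibroblast signal of KPC-3403 lay in the 9 cells, as the sum was 15.9 CPM without them. All 5 erythroid markers were seen, at 6707 and 6352 CPM, with 3 or more UMIs in 23 and 79 cells, and free RNA had 75811 and 72288 CPM of them. Their part in the differences between the lines was not tested beyond the values given with those cells left out.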

How the data were processed

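RNA of 4 libraries made with 10x Chromium 5′ chemistry was analysed, 2 of whole tumours and 2 of sorted cells. The deposited values are whole-number UMI counts per gene and barcode, unfiltered. The submitters' processing notes name Cell Ranger 6.1.1 and the mm10 build, and per the file headers the matrices come from software version 4 of Cell Ranger's format. The members, markers and gene lists were chosen with earlier results of these data known. The minimum of 10 UMIs for Jchain-high and Mpo-positive cells, the 10% minimum for haemoglobin-rich cells and the genes compared with them were chosen after the values were seen.

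Counts of B cells were summed per library and divided by their total (CPM). A gene was counted with 20 UMIs over both sums and a 2-fold difference. Ratios carry exact conditional binomial 95% intervals and shares exact Clopper-Pearson intervals, which cover counting error only. A group at 0 was set to 3 UMIs. Free RNA was taken from barcodes of at most 100 UMIs. Named genes were the markers, up to 12 per direction with the largest counting bound nearest to no difference, and per list the 4 members with the highest mean and any member past 2-fold, of which the text gives most. Doublets were kept in the main values, and Scrublet scores in scanpy 1.11.5 removed 2 and 12 cells in an alternative. Python 3.11.15, numpy 2.4.6 and scipy 1.17.1 were used, and the procedure was tested on simulated data. Alternatives changed the cell filter, the rule, scaling, minimum counts and depth, and left out named cells. Genes such as Iglc2 and Iglc3, Ighg2b and Ighg2c, the haemoglobin genes and variable genes are near-identical and may exchange reads. A few genes that the naming rule selects are not reported here.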

Additional observations from a re-analysis of the deposited data

Results flagged for a closer look

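In the enriched KPC-3403 library, from which the sort took cells bearing CD45, EPCAM, CD31 or TER119, and which was used in no comparison between lines, 4 cells met the B cell rule, which is above the 3 that a count of 0 allows. They had 5097, 34521, 21145 and 29695 UMIs. In the same order they had 0, 131, 1294 and 6 UMIs of Jchain, 7, 0, 732 and 6 of Ighm, 0, 656, 549 and 2 of Igkc and 94, 75, 70 and 131 of Cd74. UMIs of Ptprc, the gene of CD45, were 0, 1, 0 and 0, and UMIs of Col1a1 were 0, 56, 18 and 11. No cell of enriched KPC-4545 met the rule, of 1692.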

How the results depend on the processing

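With 1 library per line no replicate could be left out, and counting intervals are the only measure of error. No paired analysis was possible because each line has 1 whole library and the labels carry no replicate numbers. The ratio of B cell shares, KPC-4545 to KPC-3403, stayed between 2.76 and 3.35 under the 9 alternatives run. The KPC-3403 share was 12.9% when a cell needed 1000 UMIs and 500 genes, and with cells thinned to 1000 UMIs the shares were 23.6% and 7.45%. Counts of genes past 2-fold moved with most settings. Genes higher in KPC-4545 numbered 198 with TMM scaling, 141 without immunoglobulin and haemoglobin genes in the totals, 132 without the Jchain-high cells, 150 without these and the Mpo-positive cell, and 151 without the haemoglobin-rich cells as well. Both counts, KPC-4545 first, were 722 and 509 at a minimum of 10 UMIs, 82 and 100 at 50 UMIs, 54 and 117 at 3-fold, 18 and 94 with the counting bound past 2-fold, and 72 and 89 with cells thinned to 1000 UMIs. Genes higher in KPC-3403 numbered 157 without genes that free RNA held at a higher level, 124 without cells that had 3 UMIs of other cells' markers, and 158 without the Jchain-high, Mpo-positive and haemoglobin-rich cells. The removal of cells with other cells' markers left 3330 genes tested, of which 469 were higher in KPC-4545. Erythroid markers alone reached 3 UMIs in 23 KPC-4545 and 79 KPC-3403 B cells, so the removal could fall unequally on the lines. With that removal of cells with other cells' markers Hspa1a reversed, to a log2 difference of 0.69 in favour of KPC-4545. Ighd was seen in 27.5% and 45.2% of thinned cells and in 35.1% and 39.5% at a minimum of 2 UMIs, and Ighm in 60.8% and 64.5% of thinned cells and in 77.2% of KPC-4545 cells at 2 UMIs. Fewer genes tested or fewer molecules per cell follow from the stricter minimums, the thinning and the removal of cells, and the cause of the other shifts was not tested.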

Other observations

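Lambda light chain constant genes were seen in cells of the kappa type. In the reverse direction, Igkc was seen in 0 of 4 KPC-4545 and 1 of 4 KPC-3403 B cells with lambda variable UMIs only. Those cells were too few to compare the directions. Of the KPC-4545 B cells with kappa variable UMIs and no lambda variable UMI, 132 of 134 (98.5%, 94.7 to 99.8%) had a UMI of Iglc1, Iglc2 or Iglc3, and in KPC-3403 80 of 90 did (88.9%, 80.5 to 94.5%). Iglc3 was seen in 88.1% and 75.6% of these cells, Iglc2 in 73.9% and 74.4%, and Iglc1 in 28.4% and 15.6%. T cells of the same libraries, which were deeper, had 0 of 128 and 0 of 189 with any of the 3 genes, and myeloid cells 0 of 49 and 4 of 180. Thinned to 1000 UMIs, the shares among kappa-only cells were 72.4% and 67.2%. Kappa and lambda variable UMIs were seen together in 21 cells (12.3%, 7.77 to 18.2%) and 29 cells (23.4%). The 29 include the 8 Jchain-high cells. Without the 9 cells the KPC-3403 count was 21 of 115 (18.3%, 11.7 to 26.5%), an interval that overlaps that of KPC-4545.

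One KPC-3403 cell outside the rule by 1 UMI of Cd3g had 185 UMIs of Jchain and 494 of Ighg1 among 14001, and 1 cell of enriched KPC-3403 outside the rule had 95 of Jchain and 399 of Igha among 2512. Igha led in no cell of the whole libraries with high Jchain.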
